A study of Sus scrofa with 20 samples.

Results

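Longissimus dorsi, the long muscle of the back, was compared between fetuses of 2 pig breeds at 49, 63, 77 and 91 days post coitum (dpc), with 4 Lantang (LT) libraries set against 4 Landrace (LR) libraries. These 8 of the 20 libraries of the series were chosen by breed and stage alone. The pair at 35 dpc and the 5 pairs taken at 2, 28, 90, 120 and 180 days post natum (dpn) were left out of the test and served as libraries in which its calls could be looked up again. LR was purebred Landrace and LT was purebred Lantang, and the sows of both were inseminated with semen of purebred boars. Each library held equal amounts of RNA from 3 animals, so that a breed had 1 library per stage and the stages took the place of replicates. The fetuses used were males, and the boars sampled after birth had been castrated in their first weeks, according to the study's methods. Castration therefore applies to the libraries left out from 28 dpn on, in both breeds. A p-value therefore measures how steady a breed difference was over 4 pools of different age, and not the spread between animals of 1 age.

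Landrace is a lean breed of fast muscle growth, and Lantang is a fatty breed of southern China that grows muscle slowly. Muscle fibres of the pig form before birth in a primary wave, in which myoblasts fuse into the first myotubes, and in a secondary wave, in which smaller fibres form along them. By the dates the study's paper cites, the fetal stages compared here cover the secondary wave and only the later part of the primary wave. Expression was measured by digital gene expression (DGE): cDNA held on beads by its poly-A end was cut with NlaIII, an enzyme that cuts at CATG, and the fragment left on the bead gave 1 tag, CATG and the 17 bases after it, 21 bases in all. Where the digestion is complete the tag comes from the CATG nearest to the poly-A end. A tag that itself holds another CATG starts at a site that is not the nearest one, and such tags are called second-site tags below. Tags that differ at 1 base are called one-base neighbours. Such tags can be read from alleles, from related genes or from sequencing errors, which the counts by themselves do not distinguish.

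The fetal libraries held between 2615631 clean tags (LT at 63 dpc) and 5322022 clean tags (LT at 91 dpc), and the other LT libraries held 5080215 at 49 dpc and 4677028 at 77 dpc. LR held 4465001, 4706547, 3694014 and 4211993 in order of stage. Tags seen once had been removed, and the smallest count listed was 2, so a tag at 0 was seen at most once. Counts of 3, the smallest amount taken as detectable, correspond to 0.564 to 1.15 tags per 1000000 clean tags (TPM) in these libraries. Of 528472 distinct tags in the 8 libraries, 50615 passed the filter on low counts, and 81.5% to 89.9% of each library's counts fell on them. All results are for tags, which were not matched to genes here, and the labelled tissue could not be checked against marker genes for the same reason. The LR libraries at 120 and 180 dpn stood apart from the other 18, with 0.116% and 0.224% of their counts on second-site tags, and values that count over the pairs left out are given with and without these stages.

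The tags that passed the test of breed were about as many as those that did not. With stage as a block, edgeR's quasi-likelihood test called 25109 of the 50615 tested tags at an adjusted p below 0.05, which is 49.6% of them. LT was higher for 13815 tags (27.3% of those tested) and LR for 11294 (22.3%). The excess of LT-higher tags did not hold with an offset for the GC content of the tags, under which 12735 were LT higher and 12906 LR higher. The breed order was the same at all 4 stages for 13723 of the LT-higher and for 10828 of the LR-higher tags, beside 62.6% of all tested tags. A tag that passed the filter only through the breed in which it is high had to differ, and such tags are among these counts.

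The median log2 ratio of LT over LR was 2.05 over the LT-higher tags and -1.54 over the LR-higher tags, beside 0.02 over all tested tags. The ratio passed 4-fold, an absolute log2 above 2, for 7177 LT-higher and 2901 LR-higher tags, and it passed 16-fold, an absolute log2 above 4, for 1484 and 725. At the single stages the median log2 ratio of the LT-higher tags lay between 1.45 (63 dpc) and 1.81 (49 dpc) and that of the LR-higher tags between -1.48 (49 dpc) and -1.17 (91 dpc), on the log2(TPM + 1) scale after TMM scaling.

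Leaving out the second-site tags changed these counts little, and so did merging. Without second-site tags 24219 of 48831 tags were called (49.6%), 13330 LT higher (27.3%) and 10889 LR higher (22.3%). With each one-base neighbour added to the most abundant tag beside it, 24660 of 49158 were called (50.2%), 13790 LT higher (28.1%) and 10870 LR higher (22.1%). With both steps 23757 of 47411 were called (50.1%), 13311 LT higher (28.1%) and 10446 LR higher (22.0%). Of the 13344 LT-higher tags that kept their own place on merging 13132 were called in the same direction again, as were 10415 of 10698 LR-higher tags. Tags that joined a more abundant neighbour kept their call less often. For 471 such LT-higher tags the merged tag was LT higher in 210 cases and LR higher in 96. For 596 such LR-higher tags it was LR higher in 349 cases and LT higher in 47. Leaving out the pair at 77 dpc took the count over all tags to 14607 and the others to between 14241 and 14697, and adding the pair at 35 dpc took them to 2979 (all tags), 2943, 1361 and 1373.

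The most abundant tags that differed are given by sequence, since their counts were the highest among the called tags, with the CATG of the cut site in capitals. They were named by rank of mean TPM among tags without a second site that differed in the same direction at every stage, also after merging. The LR-higher tags shown are these.
LR abundant 1: CATGaaatgtgacattgatat
LR abundant 2: CATGgcctttaaggacaccgg
LR abundant 3: CATGaagatcaagattattgc
LR abundant 4: CATGagacagacagttgctgt
LR abundant 7: CATGaagatcaagatcatcgc
The LT-higher tags shown are these.
LT abundant 2: CATGtctatctaaatagagct
LT abundant 3: CATGttcgatcagactcagat
LT abundant 4: CATGgcatcatcaccaactgg
LT abundant 6: CATGatacatattatgtagtc

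LR abundant 1, the most abundant tag of the comparison, was at 9223, 11100, 14385 and 9935 TPM in LR and at 3310, 4668, 5007 and 3889 TPM in LT at 49, 63, 77 and 91 dpc. All 4 LR libraries lay above all 4 LT libraries, and the log2 ratio of LT over LR was -1.56 ± 0.23 (SE, adjusted p = 0.00228, edgeR). LR abundant 2 held 7564, 5137, 6849 and 6902 TPM in LR against 2289, 1958, 2085 and 2962 TPM in LT, again without overlap (log2 ratio -1.67 ± 0.23, adjusted p = 0.00213). LR abundant 4 was lower at each later stage in LR, at 7926, 4688, 3901 and 3179 TPM, and held 2633, 3675, 2294 and 1748 TPM in LT. Its groups overlapped, LR being higher at each stage but the oldest LR library lying below the LT library of 63 dpc (log2 ratio -1.05 ± 0.28, adjusted p = 0.0166).

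LR abundant 3 and LR abundant 7 differ from each other at 2 bases, T16C and T19C, with positions counted from 1 at the first base of the tag. LR abundant 3 stood at 6225, 5421, 7096 and 5246 TPM in LR and at 1032, 2097, 1988 and 1454 TPM in LT. LR abundant 7 stood at 1625, 2563, 4441 and 6343 TPM in LR and at 297, 959, 1275 and 1677 TPM in LT. The first had no steady course over the stages in either breed, whereas the second was higher at each later stage in both. The breed ratios of the pair were close, with log2 values of -2.07 ± 0.29 and -2.05 ± 0.27 (adjusted p = 0.00206 and 0.00188).

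LT abundant 3 was at 317, 715, 1227 and 1627 TPM in LR and at 1726, 2474, 2991 and 3702 TPM in LT. It was higher at each later stage in both breeds, and the youngest LT library exceeded the oldest LR library (log2 ratio 1.52 ± 0.28, adjusted p = 0.00419). LT abundant 2 was at 556, 1169, 1863 and 1819 TPM in LR and at 1191, 2510, 3071 and 3449 TPM in LT. LT was higher at each stage, but the LT library of 49 dpc lay below 2 LR libraries (log2 ratio 0.81 ± 0.22, adjusted p = 0.0169).

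LT abundant 4 and LT abundant 6 were not higher at each later stage in both breeds. LT abundant 4 held 493, 828, 1068 and 840 TPM in LR and 2073, 3159, 3181 and 2412 TPM in LT, highest in both breeds at 77 dpc (log2 ratio 1.62 ± 0.23, adjusted p = 0.00214). LT abundant 6 held 422, 604, 669 and 824 TPM in LR and 2587, 2688, 1950 and 2772 TPM in LT, and the groups were far apart (log2 ratio 1.86 ± 0.26, adjusted p = 0.00208). Over the abundant tags named, the absolute log2 ratio ran from 0.82 to 2.07 for 8 LR-higher and from 0.81 to 1.86 for 7 LT-higher tags. In the 6 pairs left out of the test, none of these 15 tags kept its direction throughout. The LR-higher tags kept it in 1 to 3 of the pairs and the LT-higher tags in 2 to 4. LR abundant 1 kept it in 2 pairs and LR abundant 2 in 1. With the pair at 35 dpc added 14 of these 15 tags lost their call, LT abundant 3 being the exception (adjusted p = 0.0383, edgeR), and the adjusted p of LR abundant 1 rose to 0.0751 and that of LT abundant 6 to 0.0751. LT abundant 2 also lost its call without the low-count filter (adjusted p = 0.0790), without the stage block (0.156) and without the pair at 77 dpc (0.0573), and LR abundant 4 without the pair at 77 dpc (0.0668) or 91 dpc (0.0581).

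**Figure D1:**
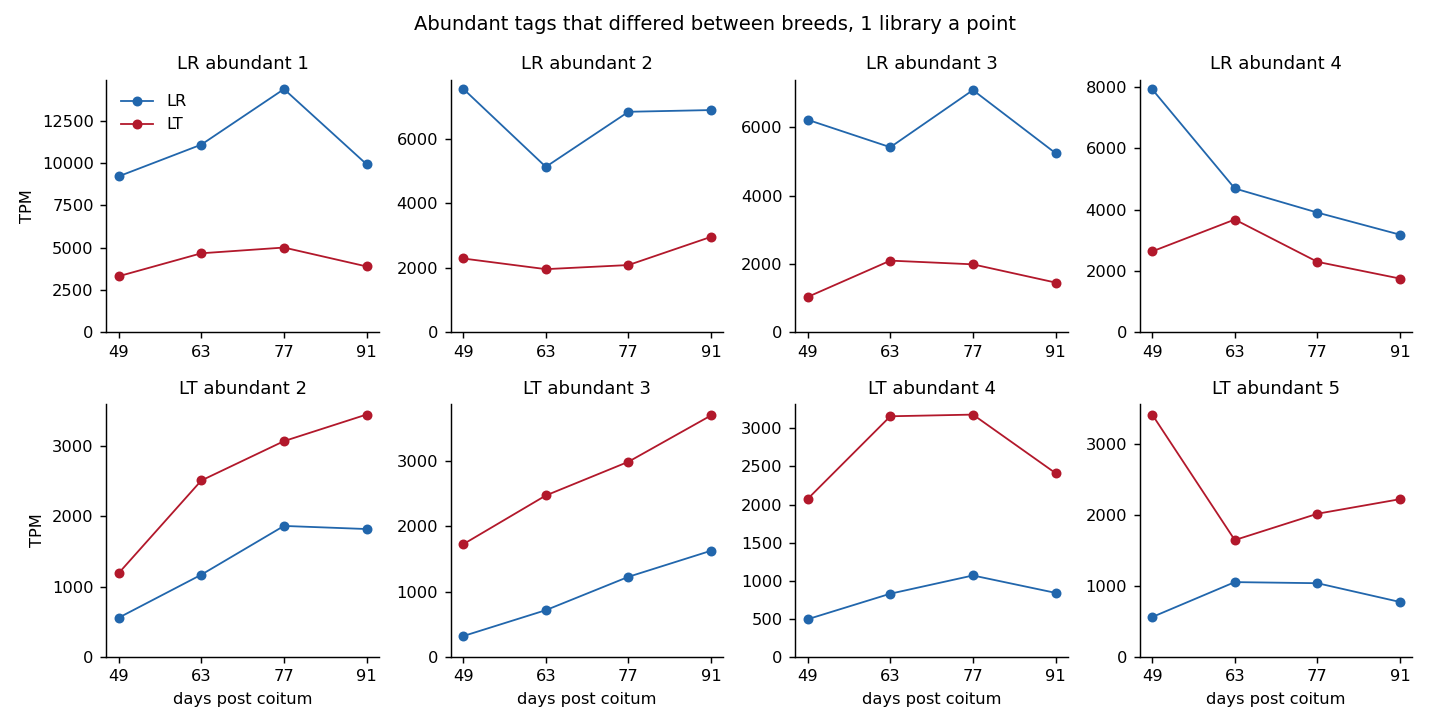
Level in TPM (vertical axes, from 0) of LR abundant 1 to 4 (upper row) and LT abundant 2 to 5 (lower row) at 49, 63, 77 and 91 days post coitum (horizontal axes), blue for LR and red for LT, with 1 point for each library. LR abundant 1 reached 14385 TPM in LR at 77 dpc and stayed at or below 5007 TPM in LT, and LT abundant 3 was higher at each later stage in both breeds.

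The breed difference itself was not found to change between 49 and 91 dpc. A term for the change of the log2 ratio per 14 days was past an adjusted p of 0.05 in edgeR for 0 of 50615 tags (0.0%), and 1536 tags, 3.03%, were below an unadjusted p of 0.05. With 8 libraries and 1 per breed and stage, this does not show that the difference was constant. Without the pair at 49 dpc the same term passed for 1286 tags, 1141 of them with a ratio of LT over LR that fell with age and 145 with one that rose.

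Some tags were counted in 1 breed and at 0 in all 4 libraries of the other. There were 752 such tags among the 13815 LT-higher and 519 among the 11294 LR-higher tags, of 50615 tested. Each had at least 3 counts in all 4 libraries of its own breed. They passed the filter on low counts only through that breed, so they had to differ. After one-base neighbours were merged, 379 of the 752 and 211 of the 519 were still at 0 in the other breed. The 4 tags of largest ratio in each direction are given, because merging treats them differently. They were chosen among tags called in the same direction after merging, so their direction and call there were fixed by the choice.
LT largest 1: CATGtagaagccgtgaacgcc
LT largest 2: CATGagaacctcaagggtgga
LT largest 3: CATGtaaataatttcaatgtc
LT largest 4: CATGttctaataaacttctac
LR largest 1: CATGaagaaaatagaagacaa
LR largest 2: CATGcttactaaaataaaaac
LR largest 3: CATGtgtaacacactgcaaat
LR largest 4: CATGtaacaataaagtctgtt

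LR largest 1 held 1368, 1079, 1590 and 1340 TPM in LR and 0 counts in each LT library, at least 1827-fold higher when the LT libraries are set to 3 counts each. With its one-base neighbours added, LT held between 854 and 3033 counts and LR between 6000 and 6834, and the log2 ratio was -1.86 (adjusted p = 0.00132). LR largest 2 held 290, 574, 528 and 534 TPM in LR and 0 counts in LT, at least 655-fold higher, and its log2 ratio after merging was -1.62 (adjusted p = 0.00167). For both, most of the difference in ratio went when a neighbour was added.

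LR largest 3 behaved otherwise on merging. It held 323, 459, 418 and 397 TPM in LR, at least 543-fold above the LT libraries, and LT was still at 0 counts with the neighbours added. LR largest 4 held 433, 455, 383 and 260 TPM in LR, at least 520-fold above LT, which also stayed at 0. In the libraries left out of the test, LT held LR largest 3 at 0 in all 6 and LR largest 4 at 0 in 5 of 6, the exception being 10.9 TPM at 180 dpn.

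LT largest 1 held 114, 144, 276 and 483 TPM in LT, at least 359-fold above the LR libraries, all at 0. After merging LR held between 34 and 281 counts and the log2 ratio was 2.56 (adjusted p = 0.00151). LT largest 3 held 156, 106, 227 and 198 TPM in LT, at least 242-fold above LR, and after merging the log2 ratio was 0.87 (adjusted p = 0.0149). Both had a much smaller ratio then, their direction after merging having been fixed by the choice of the tags.

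LT largest 2 held 45.5, 304, 234 and 193 TPM in LT, at least 274-fold above LR, and LR stayed at 0 after merging. It was also at 0 in the 6 LR libraries left out, while LT held between 1.35 TPM (35 dpc) and 3181 TPM (90 dpn) there. LT largest 4 held 413, 66.1, 149 and 42.8 TPM in LT, at least 237-fold above LR, which stayed at 0 after merging. In LT it was highest at 49 dpc, and at 35 dpc, in a library left out, it held 243 TPM.

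The clearest case of one-base neighbours was a pair in which one tag was called LT higher and the other LR higher. There were 298 such pairs of 587 distinct tags, counting only tags that kept their direction at all 4 stages, among 4255 one-base pairs of tested tags. The changed base was a transition (A with G, or C with T) in 221 of the 298 pairs, 74.2%, beside 55.6% of all one-base pairs of tested tags. Of 286 pairs whose tags were joined by merging, the merged tag was not called for 147, LR higher for 93 and LT higher for 46. Of all 49158 tags tested after merging, 50.2% were called, 28.1% LT higher and 22.1% LR higher. Counting both directions, calls of the joined pairs were thus about as frequent as calls among all merged tags. The 6 pairs with the highest summed TPM are shown, the base that differs in capitals, since both tags of each pair were called and in opposite directions.
pair 1 LT base: catgaacacttgatgcCgttt
pair 1 LR base: catgaacacttgatgcTgttt
pair 2 LT base: catgcgaagtcactgtAcctg
pair 2 LR base: catgcgaagtcactgtCcctg
pair 3 LT base: catgctttccatatgaggTat
pair 3 LR base: catgctttccatatgaggCat
pair 4 LT base: catgatggagAataatgtgag
pair 4 LR base: catgatggagGataatgtgag
pair 5 LT base: catggaggttcccaggctagG
pair 5 LR base: catggaggttcccaggctagT
pair 6 LT base: catgcttaTtaaaataaaaac
pair 6 LR base: catgcttaCtaaaataaaaac

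Pair 6 (C9T, with the LR base first) was complete. The C tag, which is LR largest 2, was at 0 in all 4 LT libraries, and the T tag was at 0 in 3 LR libraries and at 2 counts in the LR library of 63 dpc. The T tag held 128, 217, 196 and 152 TPM in LT. In the 12 libraries left out, the T tag took at least 99.96% of the pair's counts in each LT library and at most 0.0518% in each LR library. The merged tag was LR higher, with a log2 ratio of -1.62 ± 0.23 (SE, adjusted p = 0.00167).

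Pair 4 (G11A) was nearly complete in LR only. The A tag took 0.927% to 1.63% of the pair's counts in the LR libraries and, in order of stage, 74.6%, 67.0%, 65.6% and 70.4% in LT. Both tags were called, with log2 ratios of 5.35 ± 0.26 for A and -2.06 ± 0.26 for G (adjusted p = 0.000691 and 0.00172). The merged tag was not called, at a log2 ratio of -0.31 ± 0.23 (adjusted p = 0.276).

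In pair 1 (T17C) and pair 2 (C17A) LT carried 1 base almost alone and LR carried both. The C tag of pair 1 took 39.5%, 35.7%, 73.0% and 34.8% of the pair's counts in LR and at least 99.87% in each LT library. The merged tag of pair 1 had a log2 ratio of 0.27 ± 0.23 (adjusted p = 0.356) and was not called. The A tag of pair 2 took 44.3%, 51.1%, 33.3% and 42.4% in LR and at least 99.71% in each LT library, and the merged tag was LT higher at 0.92 ± 0.23 (adjusted p = 0.0115).

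Pair 3 (C19T) varied most among the LR pools, where the T tag took 86.9%, 50.7%, 99.0% and 69.6% of the counts, and at least 99.4% in each LT library. Its merged tag was LT higher, with a log2 ratio of 1.02 ± 0.28 (adjusted p = 0.0172). Pair 5 (T21G) differed in kind, since the G tag took 92.1% to 96.1% in LR and 99.5% to 99.8% in LT. The T tag of pair 5 held between 8.71 and 15.7 TPM in LR and between 1.07 and 2.36 TPM in LT, so that the less abundant tag was a small share in both breeds. With the pair at 35 dpc added the LT base lost its call in pair 1 (adjusted p = 0.0771, edgeR), pair 2 (0.0940) and pair 5 (0.126), and in pair 5 also without the pair at 77 dpc.

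**Figure D2:**
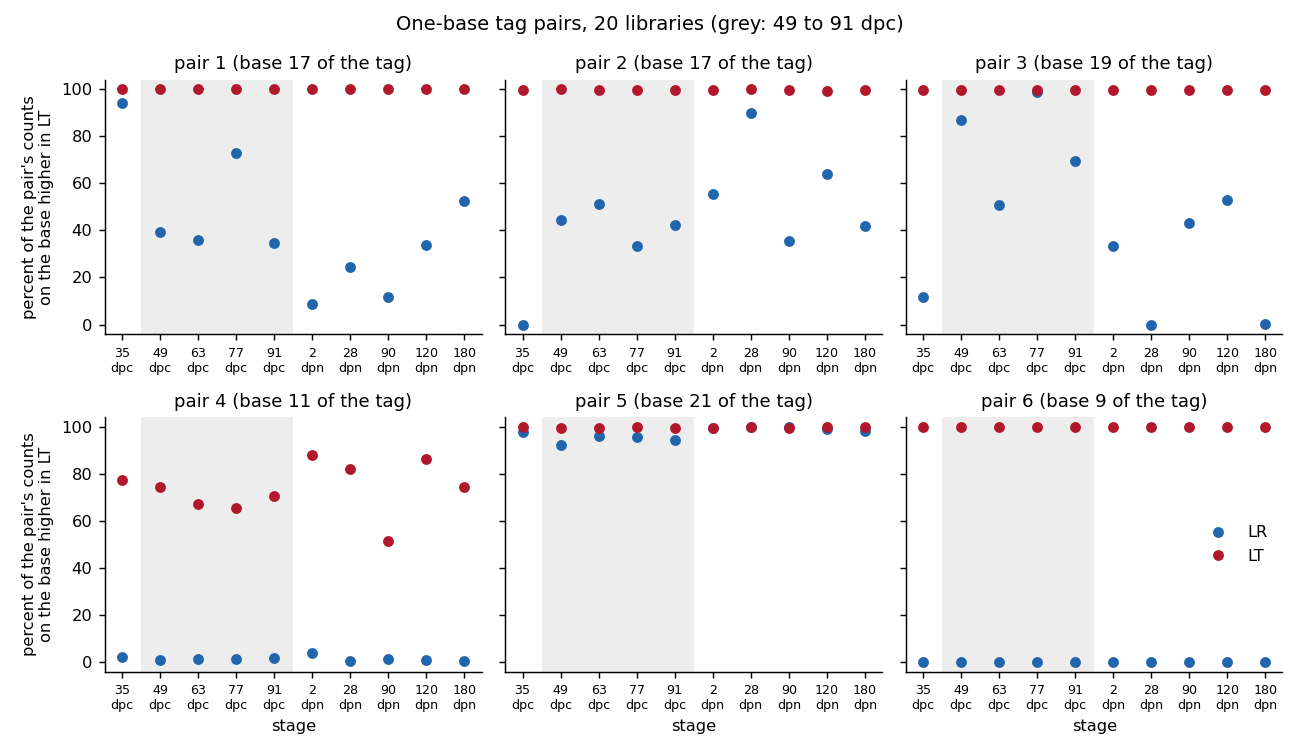
Percent of the counts of each one-base pair that fell on the base higher in LT (vertical axis), in each of the 20 libraries by stage (horizontal axis), for the 6 pairs of highest summed TPM, blue for LR, red for LT, grey for the fetal stages tested. LT libraries stood above 99% in pairs 1, 2, 3, 5 and 6 at every stage, and LR libraries ranged widely in pairs 1 to 3, with 1 library for each point and no error bars.

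Whether the calls held beyond the libraries that made them was looked up in the 6 pairs left out. Of all called tags, 38.3%, 35.3%, 28.7%, 64.1%, 67.7% and 67.1% kept their direction, in order of stage from 35 dpc to 180 dpn. LT-higher tags were LT higher in 36.1%, 39.3%, 27.1%, 68.4%, 75.5% and 79.6% of cases in the same order, beside 47.8%, 52.0%, 46.3%, 51.2%, 59.1% and 63.3% of all tested tags. LR-higher tags were LR higher in 41.0%, 30.5%, 30.7%, 59.0%, 58.3% and 51.7%, beside 50.9%, 44.0%, 46.3%, 38.7%, 25.5% and 22.7% of all tested tags. The calls of both directions were thus below the share of all tested tags at 35 dpc, 2 dpn and 28 dpn and above it at the other 3 stages. In all 6 pairs together 793 LT-higher tags (5.74%) and 405 LR-higher tags (3.59%) kept their direction, beside 4.42% and 1.02% of all tested tags that were higher in that breed throughout. Without the pairs at 120 and 180 dpn, an alternative chosen after seeing the data, 957 LT-higher tags (6.93%) and 759 LR-higher tags (6.72%) kept it in the 4 others, beside 7.78% and 5.12% of all tested tags, so that the LT-higher share was then below that of all tested tags.

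Tags at 0 in the 4 tested libraries of the other breed more often kept their direction than turned at 35 dpc, 2 dpn and 28 dpn. So did tags in oppositely called one-base pairs. Among LT-higher tags in such pairs, 88.1%, 90.8% and 86.7% were LT higher at 35 dpc, 2 dpn and 28 dpn, and among the LR-higher tags in them 88.8%, 88.1% and 78.6% were LR higher. LT-higher tags at 0 in LR with a neighbour counted there kept their direction in 90.3%, 92.2% and 82.8%, and the LR-higher ones in 90.6%, 84.7% and 79.2%. Those still at 0 after merging did so in 62.0%, 62.5% and 51.5% of the 379 LT-higher and in 94.8%, 88.2% and 77.7% of the 211 LR-higher tags. Of the 379, 32.5%, 19.5% and 13.5% were LR higher instead, and 202 were at 0 in all 6 LR libraries left out. Of the 211, 1.42%, 1.42% and 0.0% were LT higher instead, and 151 were at 0 in all 6 LT libraries left out. The 12926 LT-higher tags in none of these classes were LT higher in 33.4%, 36.6% and 24.3%, and the 10621 such LR-higher tags were LR higher in 37.8%, 27.0% and 27.7%. The classes share tags, since 1 tag can be both at 0 in the other breed and in a pair.

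Over the pairs with at least 20 counts in a library, the median share of counts on the LT-higher base was 0% in each of the 10 LR libraries. It was 100% in the LT libraries at 49 to 91 dpc and at 2 to 120 dpn, 99.95% at 180 dpn and 88.9% at 35 dpc. By this median, the composition of these pairs differed between the breeds in the same direction in the libraries left out as in those tested. Of all 298 pairs, 77 (25.8%) had both tags keep their direction in all 6 pairs of libraries left out. The number of pairs that reached 20 counts was between 88 and 284 per library.

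**Figure D3:**
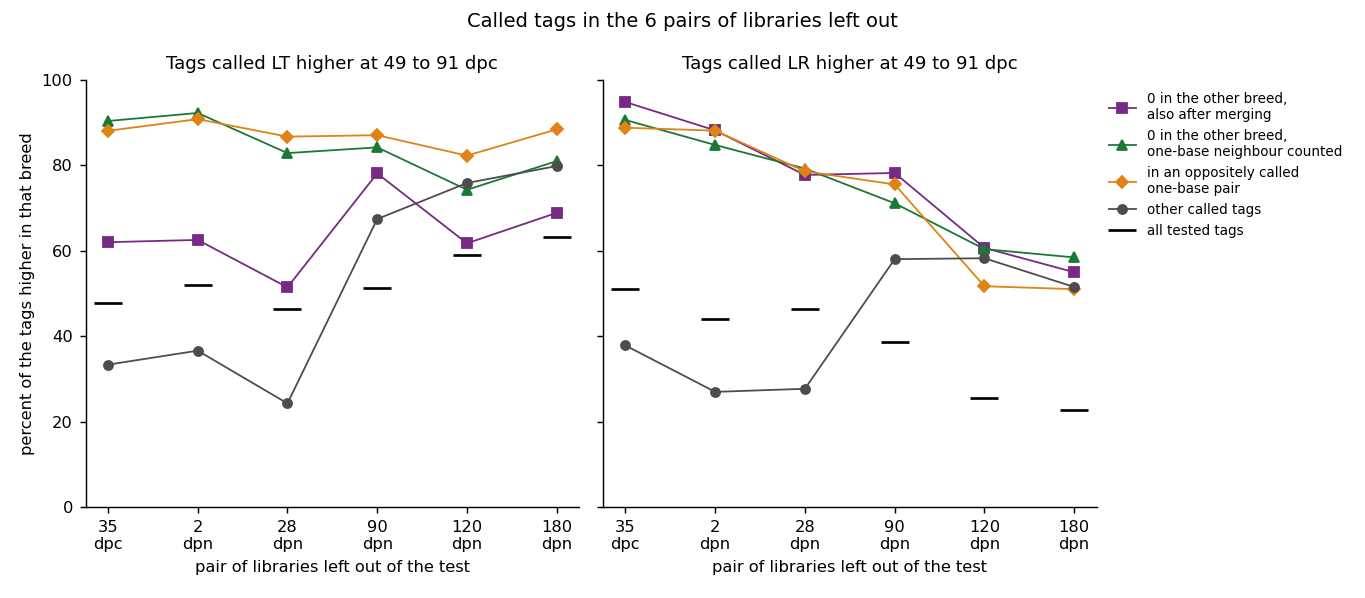
Percent of the tags called LT higher (left) and LR higher (right) at 49 to 91 dpc that were higher in the same breed (vertical axis) in each of the 6 pairs of libraries left out of the test (horizontal axis), by class of tag, with black dashes for all tested tags. The 12926 and 10621 other called tags lie below the dashes at 35 dpc, 2 dpn and 28 dpn and above them from 90 dpn, whereas the other classes lie above the dashes in every pair.

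The libraries themselves differed in the sites from which their tags came. Second-site tags took 2.62%, 2.87%, 2.77% and 2.69% of the counts in LR and 3.66%, 3.75%, 3.80% and 3.45% in LT. The groups did not overlap, and LT was higher by 0.928 percentage points (LT 3.66% ± 0.154, LR 2.74% ± 0.107, SD, n = 4, 2-sided exact permutation test, p = 0.0286, the smallest value that 70 assignments allow). Among the named tags of this kind, LT was higher for the first and LR for the second of the tags below, in which both CATG sites are in capitals.
LT second-site 1: CATGgaaactggggaaaCATG
LR second-site 1: CATGaaggcCATGcagtcact
LT second-site 1 held 301, 396, 279 and 274 TPM in LR and 1336, 941, 1140 and 917 TPM in LT (log2 ratio 1.64 ± 0.23, adjusted p = 0.00223). LR second-site 1 held 989, 1093, 1383 and 999 TPM in LR and 316, 249, 375 and 392 TPM in LT (log2 ratio -1.91 ± 0.23, adjusted p = 0.00167). With the pair at 35 dpc added neither passed the threshold, at an adjusted p of 0.0727 for LT second-site 1 and 0.0510 for LR second-site 1 in edgeR. Over all 1784 second-site tags tested, 635 were LT higher (35.6%) and 208 LR higher (11.7%), beside 27.0% and 22.7% of the tags without a second site.

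When the second-site share of each library was entered in the test beside breed and stage, edgeR called 0 of 50615 tags and 1120 were below an unadjusted p of 0.05. Since the share separates the breeds completely at these stages, a breed difference and a difference that follows the share cannot be told apart in these 8 libraries.

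In the 6 pairs left out, the second-site share was higher in LR at 35 dpc (3.40% against 3.19% in LT), at 2 dpn (2.98% against 2.60%) and at 28 dpn (2.84% against 2.14%), and higher in LT at 90 dpn (2.73% against 2.57% in LR), 120 dpn (2.83% against 0.116%) and 180 dpn (2.63% against 0.224%). The counts on LT-higher tags without a second site followed the same order. They took 24.9% to 27.6% of the LT and 5.34% to 7.68% of the LR libraries at the stages tested. They took 20.6% in LR and 17.9% in LT at 35 dpc, 15.8% and 13.5% at 2 dpn and 15.3% and 9.36% at 28 dpn. At 90 dpn they took 15.3% in LR and 23.7% in LT, at 120 dpn 1.68% in LR, and at 180 dpn 1.55% in LR and 21.9% in LT. At 120 dpn the LT share was 19.3 percentage points above that of LR. In all 6 pairs left out, those at 120 and 180 dpn among them, the breed with the higher second-site share had the higher share on LT-higher tags and the lower share on LR-higher tags. The 4 tested pairs were in the same order, which the calls themselves fix. Its part in the breed calls was not tested beyond the fit above.

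The division of counts between sites that lie side by side gave no such order. For 187 second-site tags the CATG inside the tag, 4 to 6 bases from the first, opens a tested tag that shares 15 to 17 bases with it, so that both sites lie on the same stretch of sequence. The tag of the first site took 49.0%, 44.8%, 39.4% and 44.3% of the counts of these pairs in LR and 42.7%, 46.8%, 43.6% and 39.3% in LT. The groups overlapped and differed by -1.27 percentage points, LT minus LR (LT 43.1% ± 3.07, LR 44.4% ± 3.95, SD, n = 4, 2-sided exact permutation test, p = 0.629). It was 3.95% and 8.64% in the LR libraries at 120 and 180 dpn. Of 81 pairs with both tags called, 47 had both LR higher, 32 both LT higher and 2 opposite calls. In 13 pairs the first tag alone was called, in 23 the second alone, and in 70 neither, beside 49.6% of all tested tags that were called.

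**Figure D4:**
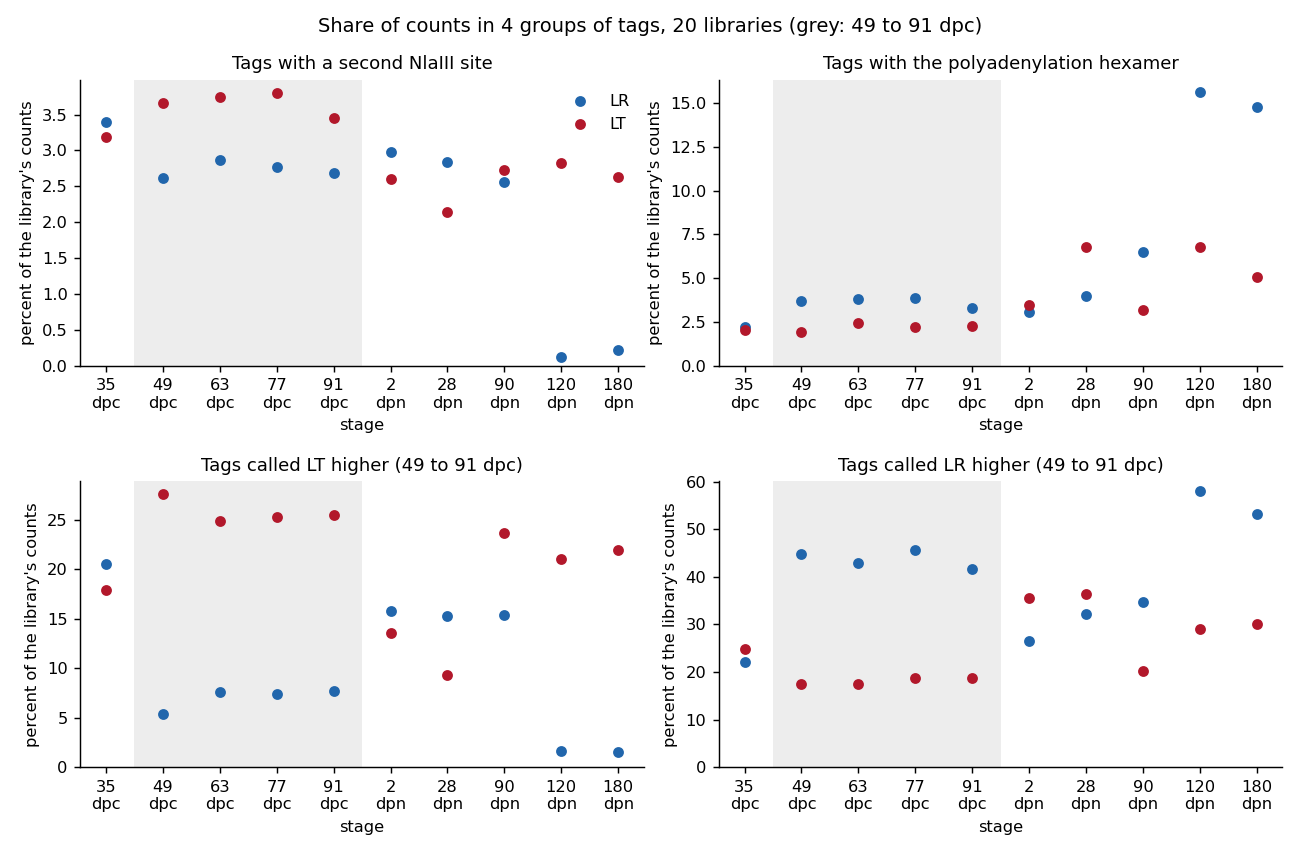
Percent of each library's counts (vertical axes, from 0) on second-site tags, on tags with the polyadenylation hexamer, and on tags without a second site called LT higher or LR higher, by stage (horizontal axes), blue for LR and red for LT, 1 point for each library, grey for the stages tested. LT lies above LR for second-site and LT-higher tags at 49 to 91 dpc and again from 90 dpn, and below LR for both at 35 dpc, 2 dpn and 28 dpn.

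Tags that hold AATAAA, the signal found shortly before the poly-A end of most transcripts, leaned to LR. The 17 bases after CATG held these letters, on the strand of the tag, in 856 tested tags. LR was higher for 391 of them (45.7%) and LT for 106 (12.4%), beside 22.3% and 27.3% of all tested tags. The median log2 ratio of LT over LR was -0.998 over the 856 tags. The common variant ATTAAA, in 433 further tags without AATAAA, was LR higher for 30.9% and LT higher for 16.6%. The reverse complement of the signal, TTTATT, was held by 686 tags without AATAAA, of which 21.9% were LR higher and 23.3% LT higher, near the shares of all tested tags.

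As a share of all counts, AATAAA tags took 3.67%, 3.80%, 3.89% and 3.32% in LR and 1.92%, 2.41%, 2.19% and 2.27% in LT. The groups did not overlap and LT minus LR was -1.47 percentage points (LT 2.20% ± 0.207, LR 3.67% ± 0.248, SD, n = 4, 2-sided exact permutation test, p = 0.0286, the smallest that 70 assignments allow). This class of tag was looked at after the fits of the same libraries had been seen, so the p-value is no independent support. The stages were not paired in it. In 9 of the 10 pairs of libraries the breed with the higher second-site share had the lower AATAAA share, the exception being 35 dpc, where LR was higher in both. Among the 6 pairs left out of the test the order held in 5. It held in 7 of 8 pairs without those at 120 and 180 dpn, the 4 tested pairs being among these. At 120 and 180 dpn the LR libraries reached 15.7% and 14.8%.

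The calls also followed abundance. With the tested tags in 5 equal groups by mean TPM, the lowest ran from 1.23 to 2.89 TPM, and of its tags 32.3% were LT higher and 11.8% LR higher. In the highest group, above 13.4 TPM, 21.2% were LT higher and 37.0% LR higher, and the shares changed steadily between them. By base composition, LT-higher calls were most frequent in tags with 8 to 9 G or C among the 17 bases (30.7%, with 19.6% LR higher) and least frequent with 14 to 17 (16.8%, with 30.2% LR higher).

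**Figure D5:**
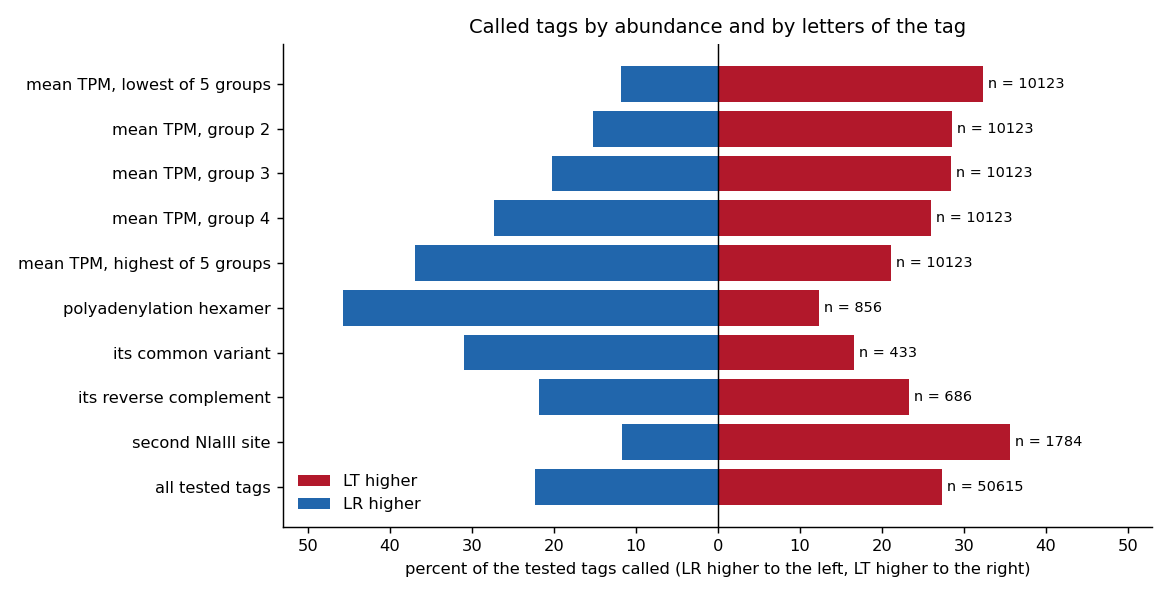
Percent of tested tags called LT higher (red, to the right of 0) and LR higher (blue, to the left) by group of mean TPM, 5 groups of equal size, and by letters held in the tag, with the number of tested tags beside each bar. The blue bar grows from 11.8% in the lowest to 37.0% in the highest group and reaches 45.7% in tags with the polyadenylation hexamer, while the red bar is longest, at 35.6%, in tags with a second NlaIII site.

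The 100 most abundant tags of a library took 19.5% to 22.5% of its counts in LR and 15.7% to 17.1% in LT, without overlap. GC content and the share of counts on one-base neighbours did overlap between the breeds. The GC content of the 17 bases, weighted by counts, was 43.3% ± 0.879 in LT and 42.6% ± 0.479 in LR (SD, n = 4, 2-sided exact permutation test, p = 0.2). One-base neighbours took 4.27% ± 0.425 of the counts in LT and 4.24% ± 0.286 in LR (SD, n = 4, 2-sided exact permutation test, p = 0.857). As a share of distinct tags they were fewer in LT, at 12.8% ± 1.01 against 15.2% ± 0.533 in LR (SD, n = 4, 2-sided exact permutation test, p = 0.0286). The libraries also differed in their number of distinct tags, in order of stage 238668, 164823, 234207 and 254671 in LT and 166691, 176480, 150424 and 172668 in LR. At 63 dpc, where LT held fewer than LR, the shares were 14.2% in LT and 14.5% in LR. Whether the share follows the number of distinct tags was not tested.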

How the data were processed

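RNA pooled from 3 animals per breed and stage was profiled by DGE tag sequencing, and 4 LT and 4 LR libraries of 49 to 91 dpc were compared. The authors deposited, for each library, the raw count of each clean tag (CATG and 17 bases), after removing adaptor tags, low-quality tags and single copies. The deposited TPM is that count per 1000000 clean tags, equal to it within rounding. The submitters' notes name Bowtie 0.12.3 and NCBI36, but neither enters these values. Libraries were grouped by breed and stage from their labels.

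Counts were tested with edgeR 4.0.16 in R 4.3.3 (quasi-likelihood test, TMM, its filter on low counts by breed, stage as block, Benjamini-Hochberg adjustment over all tested tags, threshold 0.05), on all tags, without tags holding a second CATG, with tags merged into a more abundant tag at 1 differing base, and with both steps. The edgeR and DESeq2 fits of breed, with stage as block, were run on simulated counts. These held no stage effect and far fewer changed tags than were called here. They are therefore no test of the block, or of TMM on such a profile. DESeq2 1.42.0 and other alternatives, leaving out each stage pair among them, are given in the closing section. Library shares were compared with 2-sided exact permutation tests, and intervals cover counting error only. Tags named were, per direction, the 6 of largest ratio and the 8 of highest mean TPM among tags called alike before and after merging and at all 4 stages, the 6 one-base pairs of highest TPM with opposite calls, and 2 second-site tags per direction; 1 of these tags is not reported here.

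The members, lists and tests were chosen with earlier results of these data known. The AATAAA, abundance, adjacent-site and tag-class descriptions were added after the fits had been seen. Tags were not matched to genes, since no transcript sequences were used here, so the gene-level test, gene lists and cell type markers that had been planned were not run.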

Additional observations from a re-analysis of the deposited data

Results flagged for a closer look

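Of 92 groups of 4 libraries examined with Dixon's ratio (library measures and the TPM of each named tag, by breed), 4 had 1 library far from the others, and chance alone flags about 1 group in 20. LT second-site 2, CATGgctaCATGgcctgcaga with both sites in capitals, was at 136 TPM in LR at 63 dpc, where the next LR library held 69.4 TPM. The C tag of pair 6, which is also LR largest 2 and is counted under both names, was at 290 TPM in LR at 49 dpc and at 528 TPM or more in the other LR libraries. Its partner, the T tag of pair 6, was at 0.425 TPM in LR at 63 dpc, which is 2 counts, and at 0 in the other LR libraries. All 4 lie in LR, and none reached the other breed's range.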

How the results depend on the processing

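The counts of called tags depended on 2 settings above all. With the second-site share, which separates the breeds completely, as a covariate 0 tags were called in each of the 4 breed tests. With the 35 dpc pair added the counts were 2979 (all tags), 2943 (no second-site tags), 1361 (merged) and 1373 (both). Leaving out 1 stage pair gave 14607 to 23125 over all tags, 14241 to 22292 without second-site tags, 14697 to 22680 after merging and 14327 to 21895 with both, the lowest each time without 77 dpc; fewer libraries entered these tests. Total counts, RLE, no low-count filter, no stage block, DESeq2, a GC offset and other merging rules kept each count within 1.5 times. Total counts in place of TMM shifted the median log2 ratio of all tested tags from 0.02 to 0.17 and gave 15221 LT-higher and 9375 LR-higher tags. The GC offset turned the LT excess, at 12735 LT-higher and 12906 LR-higher tags (all), 12301 and 12435 (no second-site tags), 12547 and 12701 (merged) and 12117 and 12296 (both). The change of the breed difference with age was called for 89 tags without the filter and for 0 to 1286 on leaving out a stage pair.

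No paired analysis by replicate number was possible because the labels number no replicates; stage was the block, and without it 26337 tags were called. Pairing the second-site shares by stage (0.928 points) could not reach p below 0.125, nor leaving out a stage pair (0.890 to 0.984 points) p below 0.1. The neighbour share of counts turned to -2.40 points as a share of distinct tags and ran from -0.230 to 0.250 points on leaving out a stage pair.

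Called tags keeping direction in the left-out pairs moved, after merging, to 35.9%, 32.7%, 25.9% and 63.2% for the 35 dpc, 2 dpn, 28 dpn and 90 dpn pairs, and with at least 3 counts in either library to 36.7%, 30.7%, 71.9%, 80.4% and 77.7% for the 5 postnatal pairs in order of age.

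Of 43 named tags (42 with the 35 dpc pair added) none turned under total counts, RLE, no filter, no block, DESeq2, the GC offset, the 35 dpc pair or any left-out pair. The largest, abundant and one-base-pair tags were chosen for the same direction at all 4 stages. Their direction without 1 stage pair is therefore no check of it. Calls were lost by 21 of 42 with the 35 dpc pair added, 5 of 43 without 77 dpc, 4 without 91 dpc, 1 without 63 dpc, 2 without the stage block, 1 with total counts and 1 without the filter. With the second-site covariate all 43 lost their call, and the log2 ratio turned for LT abundant 3 (-0.50), 5 (-0.40), 7 (-0.12) and 8 (-6.05), LT second-site 2 (-1.15), LR abundant 2 (0.17), 4 (0.72) and 8 (0.57), LR second-site 2 (1.40) and the G tag of pair 5 (-0.28). The share separates the breeds completely here, so neither lost calls nor turns can be assigned to the share or to breed. Merging turned the LR base of pairs 1 (0.27), 2 (0.92), 3 (1.02) and 5 (0.92) and the LT base of pairs 4 (-0.31) and 6 (-1.62), as each pair became 1 tag. The cause was not tested elsewhere. Depth limits a tag at 0 to below 0.564 to 1.15 TPM.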
